A study of Mus musculus with 15 samples.

Results

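The comparison described here asked whether dendritic cells (DC) grown with interleukin-4 answered 20 h of stimulation differently from DC grown without it. It was the difference of responses, (GM4 DC at 20 h minus GM4 DC at 0 h) minus (GM DC at 20 h minus GM DC at 0 h), computed for every probe set that is not a control, 12422 of 12488. A difference above 0 means that a gene rose more, or fell less, in GM4 DC. A difference below 0 means the reverse. It rests on 10 of the 15 arrays of the study: 3 of GM DC at 0 h, 2 of GM DC at 20 h, 3 of GM4 DC at 0 h and 2 of GM4 DC at 20 h. The other 5 arrays, taken at 6 h, entered the fit as further replicate groups, and so shape the spread that the test uses.

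All cells came from bone marrow of female NOD mice aged 6 to 8 weeks, a strain that develops autoimmune diabetes. GM DC grew in 1 ng/ml GM-CSF over 4 days, and GM4 DC in the same with 1 ng/ml interleukin-4 added. The purified cells received 10 µg/ml lipopolysaccharide (LPS) and 50 ng/ml interferon-γ, and were harvested at 0, 6 or 20 h. In the study's title the GM4 cells are the therapeutic ones and the GM cells are not. The density step that purified the cells differed with the culture, 16% metrizamide after GM-CSF alone and 14.5% after both cytokines, so culture and gradient cannot be told apart. The labels of GM4 DC at 0 h, replicate 1, give neither the cytokine concentrations nor the gradient. Source names of the GM4 DC samples at 0 h speak of exposure to the stimulus although their titles say 0 h, and the titles were followed here. The replicates are described as biological, and RNA from some of them was not good enough for an array.

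Dendritic cells take up antigen, and on sensing LPS through Tlr4 and Cd14 they activate NF-κB, secrete chemokines and cytokines and raise costimulatory molecules such as Cd86 and Cd40, which T cells need beside antigen. Interferon-γ acts on genes through GAS elements in their promoters and induces Irf1, guanylate-binding proteins and the immunoproteasome. Interleukin-4 acts through Stat6 and steers cells that grow in GM-CSF towards the dendritic rather than the macrophage form. Inhibitors such as Socs1 and Nfkbia are themselves induced by these pathways and limit them.

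Of the 12422 probe sets, 157 (1.26%) passed at a Benjamini-Hochberg adjusted p under 0.05 in limma, 69 above 0 and 88 below. After median centring of the arrays it was 32 above and 79 below. An unadjusted p under 0.05 was found for 1567 of the 12422 probe sets, and counts of this kind in the gene lists below are to be read beside that share. Counted as genes, with 1 probe set for each of 8251 genes, 52 (0.63%) had a difference above 0 and 71 (0.861%) one below. Values below are signals on the linear scale of the array, changes are differences of log2(signal + 16), and ± is limma's standard error. The added 16 shrinks the changes of genes whose signals lie near or under 16. Because whole cultures were measured, fewer cells of a type and less RNA per cell cannot be told apart. Where the cultures are said to lie apart or cross at 20 h, 2 arrays stand against 2, which describes and does not test.

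The count depends on single arrays. It ran from 15 without GM4 DC at 20 h, replicate 2, to 167 without GM DC at 0 h, replicate 3, and it was 34 without GM4 DC at 20 h, replicate 1. Without GM DC at 20 h, replicate 1 or 2, it was 59 or 41. It was also lower by over 1.5 times without GM DC at 0 h, replicate 2 (68), or GM4 DC at 0 h, replicate 1 (77). Where a 20 h array was left out, the lone array left in its group of 2 was assumed to vary like the others. In the 56 genes named by rule, the sign of the difference held in every one of these 10 fits, while between 7 and 48 of them still passed. Of the 123 genes that passed, 7 passed in all 10 fits: Rgs2, S100a4, Tg and Alcam above 0, and Aplp2, Gbp2 and Ngp below 0. For each gene described below, the number of the 10 fits in which it passed is given.

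The genes that passed fell into a few response types. In GM DC, 1040 of all 8251 genes rose by 20 h (12.6%) and 1527 fell (18.5%), and in GM4 DC 796 rose (9.65%) and 1182 fell (14.3%). Among the 52 genes above 0, 23 fell in both cultures, and a further 12 fell in GM DC and did not pass in GM4 DC. Another 9 rose in both and 7 rose in GM4 DC without passing in GM DC. Among the 71 genes below 0, 28 rose in GM DC and did not pass in GM4 DC, 18 rose in both, and 15 fell in GM4 DC without passing in GM DC. Responses that passed in opposite directions were found for 8 genes, Mgst1 above 0 and 7 below. The difference is built from these same responses, so the types describe it and do not test it.

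**Figure D1:**
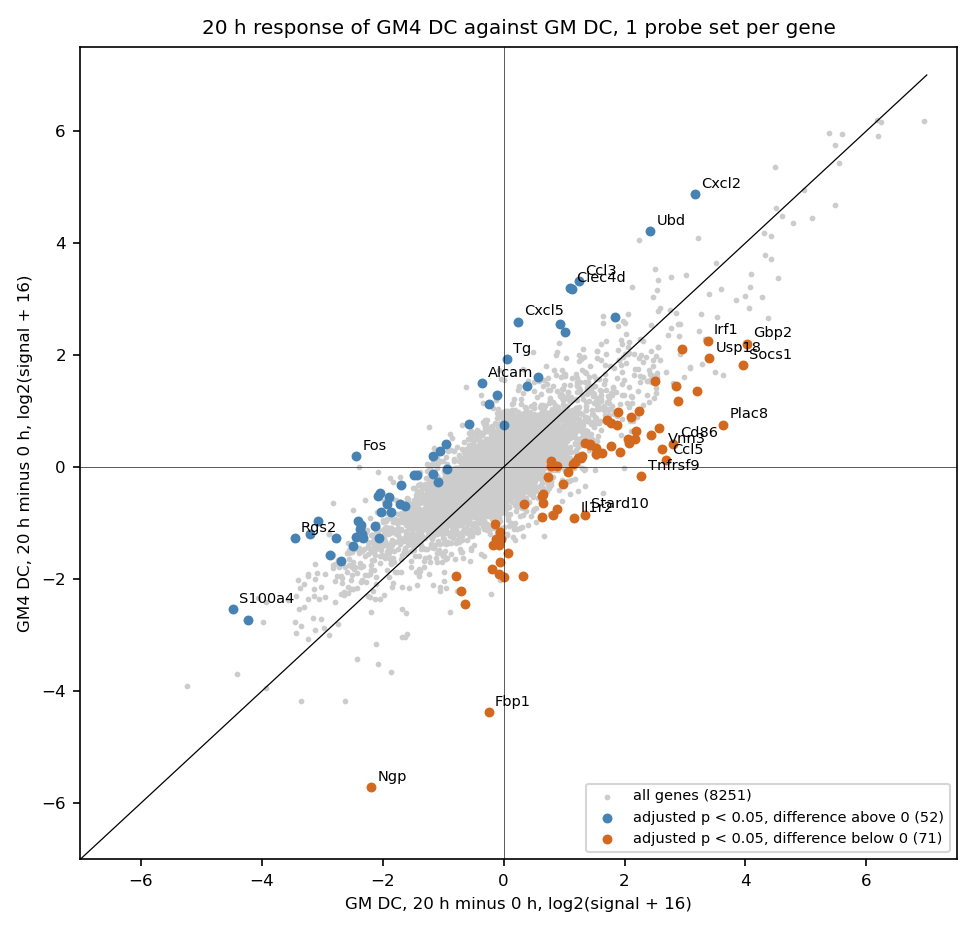
Each point is 1 gene, placed by its change from 0 to 20 h in GM DC (horizontal) and in GM4 DC (vertical), both in log2(signal + 16), with the diagonal of equal change. The 52 genes above 0 (blue) lie above the diagonal and the 71 below 0 (orange) under it, with Fbp1 and Ngp farthest below.

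RNA controls differed between the cultures, and the β-actin control, but not Gapdh, moved with the GM DC arm of the contrast. The 3′/5′ signal ratio of the β-actin control, a gauge of RNA decay and incomplete copying that goes up with both, was 1.62 to 1.88 in GM DC at 0 h and 2.15 to 2.26 at 20 h. On GM4 DC arrays it was 1.24 to 1.44 at 0 h and 1.30 to 1.35 at 20 h. For Gapdh it was 1.18 to 2.46 and 1.51 to 1.55 in GM DC, and 1.07 to 1.31 and 1.06 to 1.16 in GM4 DC. The 20 h Gapdh ratios of GM DC thus lay within its 0 h range. With the mean log2 ratio of each array as a covariate, 213 probe sets passed, among them 155 of the 157, and the 56 named genes all passed. In both cultures the 20 h values of this covariate lay within its 0 h range. Centred over all arrays, it was 0.34 and 0.39 against -0.04 to 0.59 in GM DC. The covariate separates the cultures more than the times, so this fit cannot show the part of the β-actin rise. Median signals were 40.1 to 48.5 per array, and 29.7% to 35.3% of probe sets lay under 16. Conventional DC markers, 12 measured, had a summed signal of 14908 to 18853 in GM DC at 0 h and 11988 to 15857 at 20 h, and of 23616 to 32012 and 16921 to 19514 in GM4 DC. None of the 12 had a group mean under 16 in these groups.

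**Figure D2:**
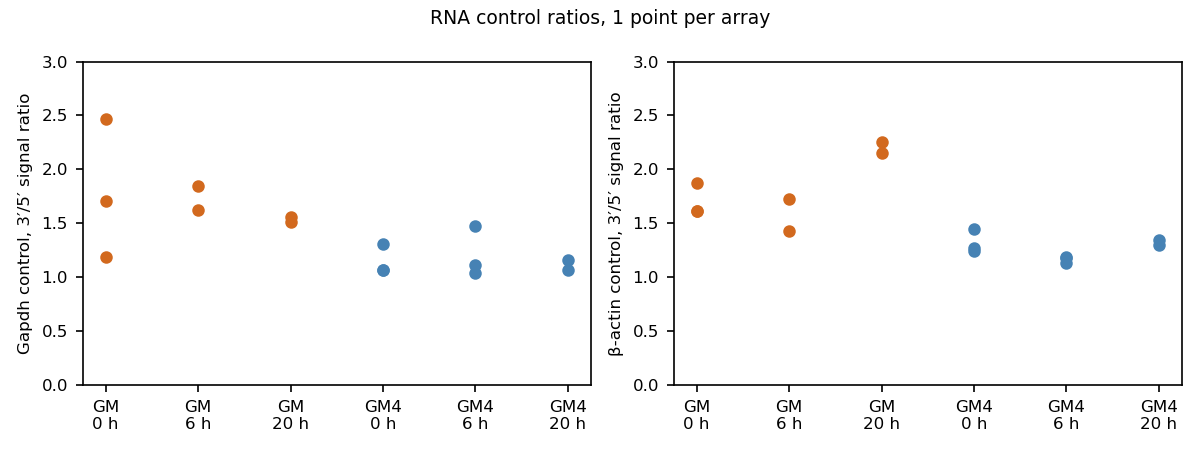
Each point is 1 array, with the group on the horizontal axis and the 3′/5′ signal ratio of the Gapdh (left) or β-actin (right) control on the vertical axis, GM DC in orange and GM4 DC in blue. On the β-actin axis both GM DC arrays at 20 h lie above all others, at 2.15 and 2.26.

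Most measured chemokines that attract neutrophils, with the related MIP-1 proteins, rose more or fell less in GM4 DC. All 7 measured members of this list had a difference above 0, 5 of them passed (Cxcl5, Ccl3, Ccl6, Cxcl2 and Ccl4), and the median difference was 1.71, against 0.03 over all genes, of which 54.0% were above 0. The lists were chosen with earlier results of these data known, so these counts and medians describe and do not test. Cxcl5, a ligand of Cxcr2, was at 25.4, 7.88 and 35.8 in GM DC at 0 h and 25.5 and 30.3 at 20 h, and in GM4 DC it went from 12.2, 21.8 and 22.4 to 125 and 292. Only the GM4 DC arrays at 20 h stood apart. Its difference was 2.36 ± 0.48 (adjusted p = 0.032), and it passed in 4 of the 10 fits.

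Ccl3 and Ccl4, which encode the chemokines MIP-1α and MIP-1β, started lower in GM4 DC and ended higher. Ccl3 signals were 274, 452 and 364 in GM DC at 0 h and 895 and 842 at 20 h. In GM4 DC they were 108, 107 and 72.9 and then 957 and 1235. The cultures did not overlap at either time, with GM4 DC below at 0 h and above at 20 h, although the 20 h levels alone did not differ at the threshold (log2 difference 0.32, adjusted p = 0.69). Ccl3 rose by 3.32 on the log2 scale in GM4 DC and by 1.25 in GM DC, a difference of 2.07 ± 0.39 (adjusted p = 0.024, 5 of 10 fits). Ccl4 went from 107, 133 and 124 to 246 and 246 in GM DC and from 63.7, 50.0 and 40.3 to 391 and 362 in GM4 DC. The order of the cultures reversed in the same way, with a difference of 1.62 ± 0.28 (adjusted p = 0.017, 6 of 10 fits). Again the 20 h levels alone did not differ at the limma threshold (log2 difference 0.58, adjusted p = 0.172).

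Cxcl2, another Cxcr2 ligand, had the largest rise of the 5 in both cultures. It climbed from 83.8, 129 and 116 to 971 and 1233 in GM DC and from 52.6, 40.8 and 37.4 to 1526 and 1931 in GM4 DC. That was a rise of 3.16 against 4.87 on the log2 scale, a difference of 1.71 ± 0.38 (adjusted p = 0.0454) that passed in 1 of 10 fits. Nor did it pass with an offset of 64, after quantile normalization or median centring, or without an intensity trend. The 20 h levels of Cxcl2 alone did not differ at the limma threshold (log2 difference 0.64, adjusted p = 0.283). Ccl6, a Ccr1 ligand, belongs to the list by family but fell in both cultures, from 1083, 842 and 520.3 to 46.7 and 103 in GM DC and from 213, 199.8 and 183 to 68.2 and 88.6 in GM4 DC. The 20 h ranges of the cultures overlap, and the difference of 2.02 ± 0.44 (adjusted p = 0.0403, 2 of 10 fits) comes with the higher 0 h level of GM DC. Cxcl1 (1.09 ± 0.27, adjusted p = 0.0785) and Ccl9 (0.64 ± 0.24, adjusted p = 0.265) did not pass.

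Without GM DC at 20 h, replicate 1, or GM4 DC at 20 h, replicate 2, none of these 7 genes passed at the limma threshold, and in the other 8 fits 1 to 4 did, while the median difference stayed between 1.56 and 1.88 over the 10 fits. The 4 measured monocyte attractants (Ccl2, Ccl7, Ccl8 and Ccl12) were all above 0 with a median of 0.85, and 0 passed in limma against 1 at an unadjusted p under 0.05. Ccl7 came nearest, with a difference of 2.06 ± 0.72 (adjusted p = 0.225). Tnf, a cytokine that induces many of these chemokines, had a difference of 1.81 ± 0.45 (adjusted p = 0.0788).

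Clec4d, Cd14 and Fpr2, which belong to different lists, also started lower in GM4 DC. Clec4d, a C-type lectin that pairs with Clec4e, was at 859, 735 and 649.5 in GM DC at 0 h and at 77.7, 99.2 and 116 in GM4 DC. By 20 h they were 1656 and 1559.8 in GM DC and 939 and 1101 in GM4 DC. GM4 DC remained below GM DC at both times, but the distance narrowed: the rise was 3.20 on the log2 scale in GM4 DC and 1.10 in GM DC (difference 2.10 ± 0.31, adjusted p = 0.00561, 9 of 10 fits). At 20 h alone the levels of Clec4d did not differ at the limma threshold (adjusted p = 0.153). Cd14, the co-receptor that hands LPS to Tlr4, went from 3560.1, 3957 and 3457 to 7257 and 7525 in GM DC and from 825, 949.7 and 876 to 4722 and 4756 in GM4 DC. It too stayed lower in GM4 DC, though the 20 h levels alone did not differ at the limma threshold (adjusted p = 0.101). The difference of responses was 1.39 ± 0.27 (adjusted p = 0.0243, 4 of 10 fits). Fpr2, a receptor for formylated bacterial peptides, went from 451, 354 and 244 to 796 and 735 in GM DC and from 70.9, 119 and 33.7 to 709 and 772 in GM4 DC. The cultures thus met at 20 h, and the difference was 2.04 ± 0.44 (adjusted p = 0.0385, 3 of 10 fits).

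Of the 15 C-type lectins, scavenger and Fc receptors measured, 2 passed above 0 (Clec4d and Clec4a2) and 9 had a positive difference, with a median of 0.51. Clec4e, the partner of Clec4d, had a difference of 1.14 ± 0.33 (adjusted p = 0.129). Marker genes of monocytes and macrophages moved alongside: 12 of 14 had a difference above 0, with a median of 0.82, and only Cd14 passed in this fit. Their summed signal was 14590 to 17267 in GM DC at 0 h and 15110 to 16250 at 20 h, and 5058 to 5956 and 9059 to 9091 in GM4 DC. This sum includes Cd14, whose group mean went from 3658 to 7391 in GM DC and from 883 to 4739 in GM4 DC. The median response of the 14 genes was a fall in both cultures, -0.73 in GM DC and -0.23 in GM4 DC. Of the 14, 2 had a group mean under 16 in GM DC at 20 h, and 2 in GM4 DC at 20 h. The part of such cells in the chemokine and receptor results was not tested.

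Among the remaining genes above 0 that rose in GM4 DC, 2 passed in all 10 fits. Alcam encodes an adhesion molecule that binds Cd6 on T cells. Its signals were 154, 148 and 167 in GM DC at 0 h and 131 and 106 at 20 h, against 59.1, 58.3 and 55.0 at 0 h and 228 and 161 at 20 h in GM4 DC. The order of the cultures reversed without overlap, a difference of 1.86 ± 0.22 (adjusted p = 0.00259). Tg, which encodes the precursor protein of thyroid hormone, was at 2.57, 3.75 and 3.77 at 0 h and 5.45 and 2.71 at 20 h in GM DC and at 3.16, 10.1 and 15.1 in GM4 DC at 0 h, all under 16, and reached 90.9 and 68.6 in GM4 DC at 20 h. Its difference was 1.88 ± 0.25 (adjusted p = 0.00403), but it did not pass with an offset of 1 before the log. Ubd, a ubiquitin-like modifier induced by inflammatory cytokines, rose from 6.16, 12.2 and 11.5 to 126 and 119 in GM DC and from 8.23, 13.1 and 11.8 to 535 and 434 in GM4 DC. The 0 h arrays overlapped and the 20 h arrays did not, with a difference of 1.78 ± 0.34 (adjusted p = 0.0245, 4 of 10 fits).

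**Figure D3:**
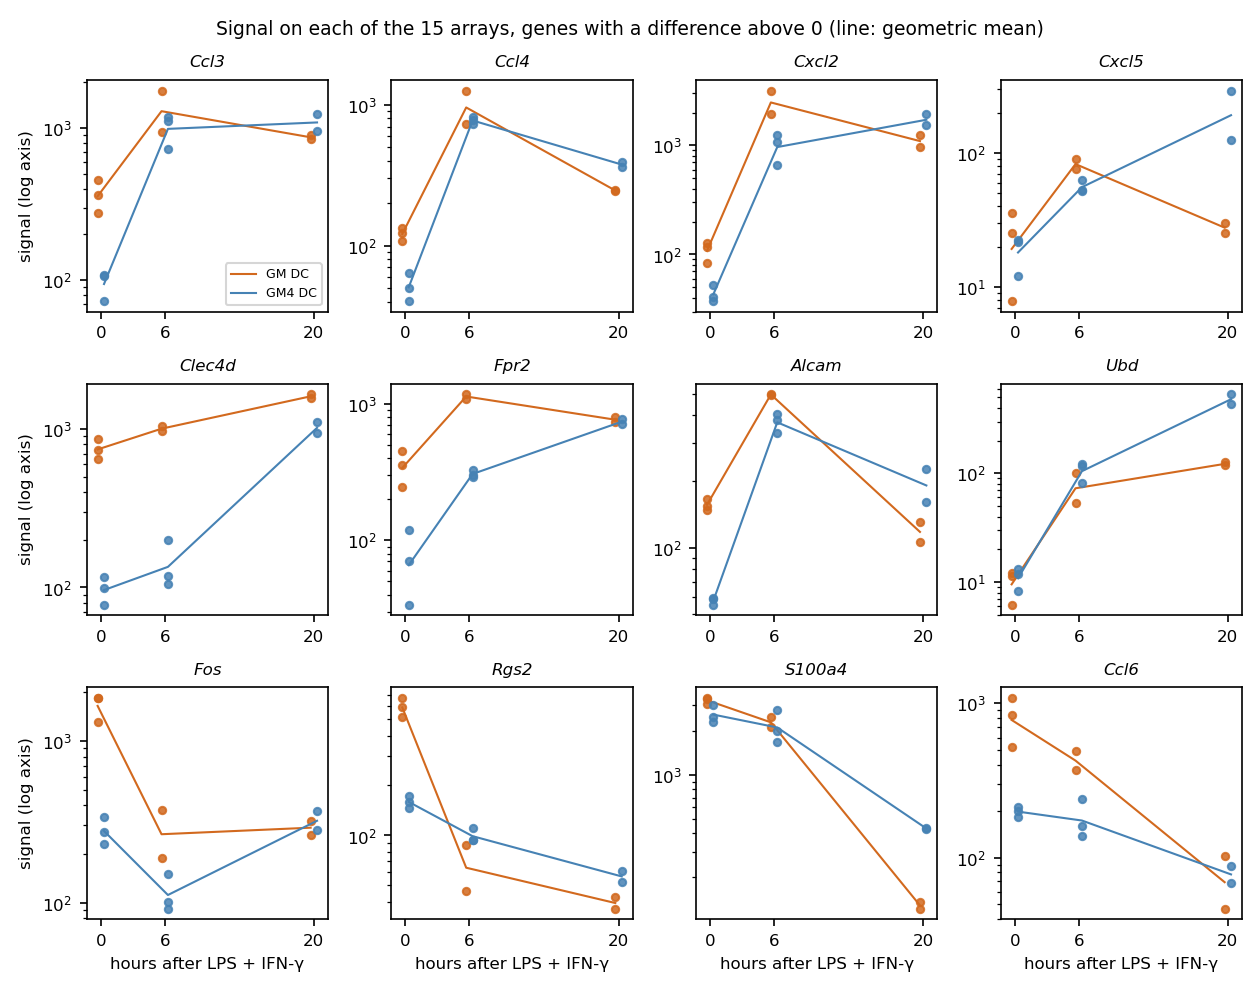
Signal (log axis) against hours after LPS and interferon-γ for 12 genes whose difference was above 0, with 1 point per array and lines through the geometric means, GM DC in orange and GM4 DC in blue. Ccl3, Ccl4, Cxcl2 and Alcam started lower in GM4 DC. Their 20 h arrays lay higher there, but of these genes only Alcam had a 20 h difference that passed in limma (adjusted p = 0.0457). Fos and Rgs2 were high only in GM DC at 0 h.

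The most common type above 0 was a fall that was steeper in GM DC. Fos, an AP-1 subunit and immediate early gene, was at 1844, 1319 and 1839 in GM DC at 0 h and 263 and 320.4 at 20 h. GM4 DC had 273, 231 and 338 at 0 h and 279 and 368 at 20 h, so that only GM DC at 0 h stood apart. The difference was 2.64 ± 0.38 (adjusted p = 0.00561, 9 of 10 fits), and a second probe set of Fos gave 0.38 and did not pass. Of the 15 AP-1 and immediate early genes measured, Fos alone passed, and their median difference was 0.14. Rgs2, which shortens signalling by G proteins, went from 594, 514 and 673 to 42.3 and 36.3 in GM DC and from 147, 158 and 174 to 61.3 and 52.4 in GM4 DC. GM DC was above GM4 DC on every array at 0 h and below it on every array at 20 h, a difference of 2.19 ± 0.28 (adjusted p = 0.00403) in all 10 fits. Its 20 h levels alone did not differ at the limma threshold (log2 difference 0.40, adjusted p = 0.399).

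S100a4, a calcium-binding protein of motile cells, differed little at 0 h (log2 difference -0.32, adjusted p = 0.226) and parted by 20 h. It was at 3029, 3335 and 3299.8 in GM DC and 2994, 2278 and 2488 in GM4 DC at 0 h, and at 123 and 135 in GM DC and 429.5 and 432 in GM4 DC at 20 h. The fall on the log2 scale was -4.48 in GM DC and -2.53 in GM4 DC, a difference of 1.95 ± 0.26 (adjusted p = 0.00403) in all 10 fits. Dus1l, related to tRNA dihydrouridine synthases, parted in the same way, from 103, 73.4 and 78.3 to 13.6 and 3.77 in GM DC and from 84.8, 73.8 and 62.3 to 62.8 and 37.3 in GM4 DC. Its difference of 1.59 ± 0.34 (adjusted p = 0.0387) passed in 1 of 10 fits.

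Cd93, a surface glycoprotein of myeloid cells, and Clec4a2, an inhibitory lectin receptor, were high in GM DC at 0 h. Cd93 went from 341, 217 and 330.4 to 11.9 and 31.7 in GM DC and from 24.3, 22.8 and 52.2 to 5.29 and 11.7 in GM4 DC, where the late signals were under 16. Its difference was 2.10 ± 0.43 (adjusted p = 0.0316, 3 of 10 fits). Clec4a2 went from 567, 507 and 412 to 59.9 and 57.0 in GM DC and from 144, 112 and 85.5 to 35.7 and 38.3 in GM4 DC, a difference of 1.50 ± 0.32 (adjusted p = 0.0349, 2 of 10 fits). Hexa, the α subunit of the lysosomal enzyme β-hexosaminidase, completed this pattern at a smaller size, 0.93 ± 0.19 (adjusted p = 0.0327, 2 of 10 fits), with 0.88 for a second probe set that did not pass. It fell from 1675, 1657 and 1495 to 481 and 536 in GM DC and from 679.8, 595 and 849.7 to 413 and 438 in GM4 DC, and 14 of 18 lysosomal genes were above 0 with a median of 0.22.

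Several genes induced by interferon-γ rose less in GM4 DC than in GM DC. Of 14 measured GTPases and targets of interferon-γ, 3 passed (Socs1, Gbp2 and Irf1), 11 had a difference below 0, and the median was -0.72. The promoters of these 3 genes are shown because each holds a binding motif of the pathway in the 250 bases before its start (RefSeq, GRCm38.p6, gene strand), with capitals marking the motif.
Gbp2 at chr3:142620413-142620662, plus strand: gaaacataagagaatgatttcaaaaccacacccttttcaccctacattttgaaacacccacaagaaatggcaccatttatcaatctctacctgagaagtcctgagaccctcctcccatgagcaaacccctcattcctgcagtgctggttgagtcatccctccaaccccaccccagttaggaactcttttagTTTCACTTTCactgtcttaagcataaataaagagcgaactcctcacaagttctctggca
Socs1 at chr16:10785537-10785786, minus strand: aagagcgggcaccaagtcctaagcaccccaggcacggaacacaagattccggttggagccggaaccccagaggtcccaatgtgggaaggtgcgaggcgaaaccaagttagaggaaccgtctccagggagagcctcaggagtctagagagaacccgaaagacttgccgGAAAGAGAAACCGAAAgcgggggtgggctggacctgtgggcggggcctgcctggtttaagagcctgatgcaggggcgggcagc
Irf1 at chr11:53769764-53770013, plus strand: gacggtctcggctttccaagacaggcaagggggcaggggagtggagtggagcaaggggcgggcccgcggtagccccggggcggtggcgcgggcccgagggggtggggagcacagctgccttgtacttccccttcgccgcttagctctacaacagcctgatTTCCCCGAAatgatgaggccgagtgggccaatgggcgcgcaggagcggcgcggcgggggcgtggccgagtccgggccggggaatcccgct
The capitals are a GAAANNGAAA core of the interferon-stimulated response element (ISRE), bound by Irf proteins, read from the opposite strand in Gbp2 and as a pair of overlapping copies in Socs1. In Irf1 they are TTCNNNGAA, the GAS element of genes that interferon-γ induces. In windows from 250 bases before to 50 bases after the start, on both strands, the ISRE core was found in 3.30% of 6572 array genes, in 2 of 41 genes above 0 (4.88%) and in 3 of 57 genes below 0 (5.26%). The GAS form was found in 7.14% of all, in 5 of 41 (12.2%) and in 7 of 57 (12.3%). A Stat6-type TTCNNNNGAA was found in 5.39%, 2.44% and 3.51%, and the loose κB form GGGNNNNNCC in 65.4%, 61.0% and 59.6%. For the 1308 genes with several windows the first listed was used, and a match is no evidence of binding.

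Gbp2, a guanylate-binding GTPase of cell-autonomous defence, had the lowest adjusted p of all genes named. It was at 380.4, 311 and 331 in GM DC and 859.6, 918 and 892 in GM4 DC at 0 h. At 20 h it was at 6041 and 5535 in GM DC and 4317 and 3994 in GM4 DC. GM4 DC was above GM DC on every array at 0 h and below it on every array at 20 h. The 20 h levels alone did not differ at the limma threshold (log2 difference -0.48, adjusted p = 0.0856). The rise on the log2 scale was 4.03 in GM DC and 2.20 in GM4 DC, a difference of -1.82 ± 0.19 (adjusted p = 0.00199) in all 10 fits. Irf1, a transcription factor that interferon-γ induces, crossed in the same way, from 359.8, 346 and 365 to 3787 and 3925 in GM DC and from 478, 517 and 579 to 2598 and 2529 in GM4 DC. Its difference was -1.12 ± 0.18 (adjusted p = 0.0126, 7 of 10 fits). For Irf1 the 20 h levels alone did differ in limma (log2 difference -0.59, adjusted p = 0.0296).

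Socs1, an inhibitor of Jak kinases that both interferon-γ and interleukin-4 induce, rose from 282, 275 and 174 to 3946 and 3899 in GM DC. In GM4 DC it rose from 696, 727 and 646 to 2640.1 and 2318. Again GM4 DC lay above at 0 h and below at 20 h, with a difference of -2.13 ± 0.31 (adjusted p = 0.00561, 9 of 10 fits). The 20 h levels of Socs1 alone did not differ at the limma threshold (log2 difference -0.66, adjusted p = 0.153). Members with the largest rises of the list did not differ at the threshold: Cxcl9 had -0.79 ± 0.21 (adjusted p = 0.0947), Irgm2 -0.92 ± 0.25 (adjusted p = 0.108) and Iigp1 -0.28 ± 0.45 (adjusted p = 0.897). In the 10 fits 1 to 4 members of the list passed.

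Of 20 antiviral genes induced by type I interferon, Usp18 alone passed, and the list's median difference was -0.28. Usp18, which removes the Isg15 modifier and blocks the type I receptor, went from 174, 232 and 228 to 2635 and 2126 in GM DC. GM4 DC went from 469, 536 and 480.0 to 1932 and 1982, higher at 0 h on every array and lower at 20 h on every array. The 20 h levels alone did not differ at the limma threshold (log2 difference -0.27, adjusted p = 0.456). The difference of responses was -1.45 ± 0.21 (adjusted p = 0.00633, 9 of 10 fits). Rsad2 (0.28 ± 0.49, adjusted p = 0.905), Cmpk2 (0.01 ± 0.43, adjusted p = 0.998) and Ifit1 (-0.80 ± 0.33, adjusted p = 0.327) rose strongly in both cultures without a difference that passed.

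Several costimulatory and NF-κB genes that passed below 0 were already higher in GM4 DC than in GM DC before stimulation. Of 12 measured costimulation and maturation genes, 2 passed (Cd86 and Cd40), 11 had a difference below 0 and the median was -0.42. Over the 10 fits 0 to 4 genes of this list passed, the 0 being without either GM4 DC array at 20 h and the 4 without GM DC at 0 h, replicate 3, while 1 passed in each of the other 7. Cd86, the ligand of Cd28 on T cells, was at 92.0, 105 and 76.9 in GM DC at 0 h and at 646, 972 and 776 in GM4 DC, a log2 difference of 2.91 at that time. At 20 h GM DC had 987 and 543 and GM4 DC 986 and 1133, and the 2 ranges met. Cd86 rose by 2.81 in GM DC, its change in GM4 DC was 0.42 (adjusted p = 0.318), and the difference was -2.39 ± 0.38 (adjusted p = 0.0114, 8 of 10 fits). A second probe set gave -0.97 and did not pass. Cd40, which receives help from T cells, rose in both, from 72.8, 68.5 and 77.6 to 741 and 612 in GM DC and from 170.1, 180.0 and 202 to 828 and 863 in GM4 DC. GM4 DC was above at both times, though the 20 h levels alone did not differ at the limma threshold (adjusted p = 0.239). The difference of responses was -0.85 ± 0.18 (adjusted p = 0.0347, 1 of 10 fits). Cd80, the other Cd28 ligand, had -0.08 ± 0.42 (adjusted p = 0.982), and Ccr7, which leads DC to lymph nodes, -1.15 ± 0.37 (adjusted p = 0.169).

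Tnfrsf9 (4-1BB), a costimulatory receptor of the TNF family, was at 44.0, 33.0 and 105 in GM DC at 0 h and rose to 362 and 297. GM4 DC had 578, 497 and 536 at 0 h and 568 and 401 at 20 h, so the level reached late in GM DC was below the starting level of GM4 DC. The difference was -2.44 ± 0.42 (adjusted p = 0.0168, 7 of 10 fits), while a second probe set gave 0.18 and did not pass. Traf1, an adaptor of such receptors, rose from 239, 176 and 365 to 1089 and 1107 in GM DC, and GM4 DC had 892, 732 and 1055 and then 1268 and 1119.8. Its difference was -1.65 ± 0.31 (adjusted p = 0.024, 5 of 10 fits). These were the 2 of 17 genes of the TNF superfamily and Traf list that passed, 6 of the 17 were above 0, and the median was -0.17. Over the 10 fits 0 to 3 genes of this list passed, the 0 being without either GM DC array at 20 h or GM4 DC at 20 h, replicate 2. Traf6, the adaptor of Toll-like receptors, went from 215, 271 and 305 to 653 and 655 in GM DC, whereas GM4 DC had 491, 502 and 442 at 0 h and 563 and 513 at 20 h. Its difference was -1.11 ± 0.19 (adjusted p = 0.017, 6 of 10 fits), with 2 further probe sets also below 0 and not passing.

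Of 13 NF-κB subunits and regulators, 3 passed below 0 (Nfkbia, Birc2 and Nfkb2), 12 had a difference below 0 and the median was -0.56. Nfkbia, the inhibitor IκBα and itself an NF-κB target, rose from 1187, 1100.1 and 1446 to 4966 and 5437 in GM DC. GM4 DC had 2464, 2294 and 2969 at 0 h and 3744 and 3559 at 20 h, so the order of the cultures reversed without overlap. The 20 h levels alone did not differ at the limma threshold (log2 difference -0.51, adjusted p = 0.192). The difference of responses was -1.55 ± 0.26 (adjusted p = 0.0135, 7 of 10 fits), and a second probe set gave -0.58 and did not pass. Nfkb2, the p100 subunit, went from 244, 227 and 326 to 416 and 429 in GM DC. In GM4 DC it was higher at both times, 743, 653 and 859.6 at 0 h and 545 and 523 at 20 h. The 20 h levels alone did not differ at the limma threshold (adjusted p = 0.409). The difference of responses was -1.13 ± 0.24 (adjusted p = 0.0349, 2 of 10 fits). Relb, the partner of Nfkb2, had -1.26 ± 0.36 (adjusted p = 0.122), and Rel -0.01 ± 0.25 (adjusted p = 0.998). Over the 10 fits 0 to 4 genes of this list passed, the 0 being without GM DC at 20 h, replicate 2, or either GM4 DC array at 20 h.

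Of 18 anti-inflammatory and feedback genes, 4 passed below 0 (Socs1, Il1r2, Gadd45b and Nfkbia), 14 had a difference below 0 and the median was -0.52. Their median difference between the cultures at 0 h was 0.16. Over the 10 fits 0 to 4 genes of this list passed, the 0 being without GM4 DC at 20 h, replicate 2, and the 1 without GM DC at 20 h, replicate 2, or GM4 DC at 20 h, replicate 1. Gadd45b, a stress gene that NF-κB induces, rose from 262, 185 and 512 to 1854 and 1796 in GM DC, and GM4 DC had 993, 882 and 1407 at 0 h and 1927 and 1593 at 20 h. The late levels overlapped, and the difference of -1.88 ± 0.43 (adjusted p = 0.0495) passed in 1 of 10 fits, with -1.02 for a second probe set that did not pass. Ccl5, a chemokine for T cells, rose from 1296, 735 and 2939 to 8985 and 9309 in GM DC, and was already at 5384, 4285 and 6273 in GM4 DC at 0 h, with 5876 and 5598 at 20 h. The spread of GM DC at 0 h was wide, and the difference of -2.55 ± 0.56 (adjusted p = 0.0434) passed in 1 of 10 fits. Il10, an anti-inflammatory cytokine, had -1.20 ± 0.30 (adjusted p = 0.0788), and Il1rn, the interleukin-1 receptor antagonist, 0.93 ± 0.23 (adjusted p = 0.0756).

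The immunoproteasome, which cuts peptides for MHC class I, followed the same course. Of 12 measured genes of class I presentation, 3 passed below 0 (Psme1, Psmb9 and Psmb8), 11 had a difference below 0 and the median was -0.57. Psme1, a subunit of the PA28 activator, went from 509, 576 and 575 to 1353 and 1136 in GM DC. In GM4 DC it was at 1406, 1182 and 1412 at 0 h and 1469.6 and 1309.6 at 20 h. The GM DC arrays at 20 h overlapped with the GM4 DC arrays at 0 h, and the difference of responses was -1.08 ± 0.21 (adjusted p = 0.0245, 4 of 10 fits), and a second probe set gave -0.17 and did not pass. Psmb9, a catalytic subunit, went from 706, 699.7 and 783 to 1993 and 2005 in GM DC and from 1362, 1451 and 1445 to 2023 and 1786 in GM4 DC, a difference of -1.02 ± 0.19 (adjusted p = 0.022, 5 of 10 fits). Psmb8, another catalytic subunit, rose from 909.5, 793 and 749 to 1433 and 1287 in GM DC and had 1798, 1708 and 1604 at 0 h and 1602 and 1413 at 20 h in GM4 DC, a difference of -0.90 ± 0.19 (adjusted p = 0.0385, 1 of 10 fits). Tap1, a peptide transporter, had -0.73 ± 0.26 (adjusted p = 0.223), and B2m, the class I light chain, -0.39 ± 0.24 (adjusted p = 0.567). Over the 10 fits 0 to 3 genes of this list passed, the 0 being without GM DC at 0 h, replicate 2, or without any 1 of the 4 arrays at 20 h.

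**Figure D4:**
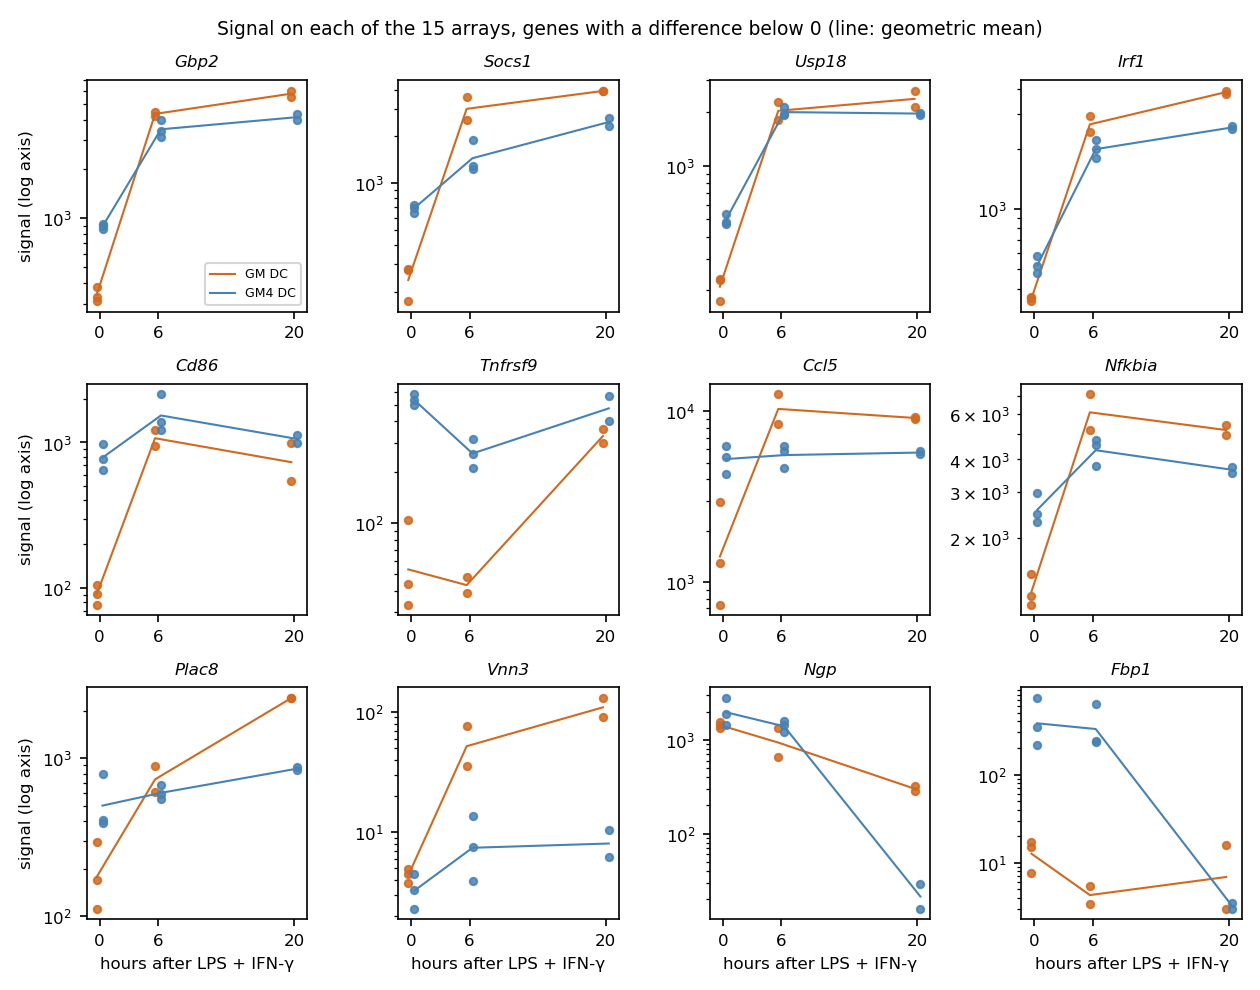
Signal (log axis) against hours after LPS and interferon-γ for 12 genes whose difference was below 0, with 1 point per array and lines through the geometric means, GM DC in orange and GM4 DC in blue. Gbp2, Socs1, Cd86 and Tnfrsf9 started higher in GM4 DC, Plac8 and Vnn3 rose in GM DC, and Ngp and Fbp1 fell in GM4 DC.

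Genes linked to interleukin-4 and Stat6 held the largest single difference. Fbp1, the gluconeogenic enzyme fructose-1,6-bisphosphatase, was at 7.67, 15.2 and 17.3 in GM DC at 0 h and 3.02 and 15.7 at 20 h. GM4 DC had 739, 343 and 218 at 0 h and 3.02 and 3.48 at 20 h, so that a signal far above 16 in GM4 DC at 0 h was under 16 there at 20 h. The difference was -4.13 ± 0.65 (adjusted p = 0.0113, 7 of 10 fits). Arg1, arginase, was at 889, 1137 and 934 in GM DC at 0 h and 3820.2 and 3047 at 20 h, against 1669, 2122 and 2188 at 0 h and 2691 and 2488 at 20 h in GM4 DC. Here GM DC began below GM4 DC and ended above it, though the 20 h levels alone did not differ at the limma threshold (adjusted p = 0.362). The difference of responses for Arg1 was -1.40 ± 0.27 (adjusted p = 0.0243, 5 of 10 fits). With Socs1 these were the 3 of 19 genes of the list that passed, and all 3 were below 0. Over the 10 fits 0 to 4 genes of this list passed, the 0 being without GM4 DC at 20 h, replicate 2. The remaining members went both ways, 9 of the 19 above 0 and a median of -0.20. Il4ra, the interleukin-4 receptor chain, had -1.32 ± 0.37 (adjusted p = 0.122), and Ccl17, a Stat6-induced chemokine, 1.21 ± 0.33 (adjusted p = 0.111).

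A few further genes were higher in GM4 DC than in GM DC at 0 h and fell in GM4 DC by 20 h. Gimap1, a GTPase of lymphocytes, was at 1.28, 2.04 and 6.69 at 0 h and 1.83 and 2.42 at 20 h in GM DC and went from 113, 129 and 68.7 to 18.2 and 11.8 in GM4 DC. Its difference was -1.83 ± 0.33 (adjusted p = 0.0184, 6 of 10 fits). Fezf2, a transcription factor best known from neurons, was at 22.4, 26.1 and 33.2 at 0 h and 22.5 and 32.2 at 20 h in GM DC and went from 224, 136 and 134 to 28.1 and 29.8 in GM4 DC (difference -1.97 ± 0.36, adjusted p = 0.021, 6 of 10 fits). For both genes the cultures were apart at 0 h on every array. Spib, an Ets factor of plasmacytoid DC and B cells, was at 23.2, 23.4 and 52.3 at 0 h and 11.6 and 17.6 at 20 h in GM DC and went from 182, 217 and 149.9 to 23.1 and 17.3 in GM4 DC (difference -1.82 ± 0.41, adjusted p = 0.0488, 1 of 10 fits), and a second probe set gave -0.35 and did not pass. Thy1, a surface marker of T cells, was at 3.81, 7.52 and 15.8 at 0 h and 26.1 and 6.62 at 20 h in GM DC and went from 46.6, 92.4 and 94.2 to 8.20 and 6.81 in GM4 DC (difference -2.28 ± 0.52, adjusted p = 0.0495, 2 of 10 fits). Thy1 did not pass with an offset of 1 or 64, or after quantile normalization or median centring. Without an intensity trend, or with the 10 arrays alone, it did not pass either.

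Thy1 was the 1 of 13 T and NK cell markers that passed, the list's median difference was -0.04, and the summed signal of the 13 was 199 to 306 in GM4 DC at 0 h and 248 to 288 at 20 h, and 97.9 to 177 and 246 to 310.5 in GM DC. Of those 13, 9 had a mean under 16 in GM4 DC at 0 h and 11 in GM DC. Spib was the 1 of 5 plasmacytoid DC markers that passed, all 5 had a difference below 0 with a median of -0.52, and their summed signal was 469 to 653 in GM4 DC at 0 h and 1395 to 1958 at 20 h, and 301 to 326 and 1797 to 2259 in GM DC. At 0 h GM4 DC was above, and at 20 h the 2 ranges overlapped. The sum rose in both cultures, while the median response of the 5 genes was -0.13 in GM4 DC and 0.39 in GM DC. The part of such cells in these 2 results was not tested.

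Another group rose in GM DC, and rose less or did not pass in GM4 DC. Plac8, a cysteine-rich protein of myeloid cells, went from 294, 169 and 112 to 2403 and 2399 in GM DC. In GM4 DC it was at 408, 793 and 389 and then 873 and 844. GM DC was below GM4 DC on every array at 0 h and above it on every array at 20 h, a difference of -2.88 ± 0.46 (adjusted p = 0.0125, 7 of 10 fits). Vnn3, a pantetheinase, was under 16 on all 6 arrays at 0 h and reached 131 and 91.3 in GM DC against 10.3 and 6.28 in GM4 DC. Its difference was -2.30 ± 0.34 (adjusted p = 0.00654, 9 of 10 fits). Ms4a4c, a membrane protein of the Ms4a family, went from 43.5, 47.7 and 49.4 to 673 and 468 in GM DC and from 94.2, 111 and 55.6 to 266 and 216 in GM4 DC (difference -1.85 ± 0.33, adjusted p = 0.0187, 7 of 10 fits).

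Il13ra1, a chain shared by receptors for interleukin-4 and interleukin-13, went from 86.7, 92.0 and 96.9 to 492 and 411 in GM DC and from 68.3, 69.3 and 70.6 to 158 and 128 in GM4 DC. The late arrays were well apart, and the difference was -1.22 ± 0.21 (adjusted p = 0.0151, 8 of 10 fits). It was the 1 of 16 receptors for the culture's and the stimulus's cytokines that passed, and that list's median was -0.41. Il1r2, the decoy receptor of interleukin-1, went from 109, 131 and 143 to 264 and 348 in GM DC and from 158, 199 and 132 to 81.9 and 74.9 in GM4 DC. It rose in one culture and fell in the other, a difference of -2.07 ± 0.34 (adjusted p = 0.0135, 7 of 10 fits), and a second probe set gave -1.59 and did not pass.

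Smaller differences of this kind were found for Ctsh, H2-Oa and Sdc1, each of which passed in 1 of 10 fits. Ctsh, a lysosomal protease, went from 1703, 1497 and 1275 to 3895 and 3677 in GM DC and from 1091, 1027 and 1258 to 1612 and 1413 in GM4 DC, a difference of -0.92 ± 0.20 (adjusted p = 0.039). H2-Oa, a chain of the molecule that modulates peptide loading of MHC class II, went from 98.3, 123 and 115 to 303 and 296 and had 177, 153 and 211 at 0 h and 178 and 239 at 20 h in GM4 DC, a difference of -1.11 ± 0.24 (adjusted p = 0.0387). Sdc1, a heparan sulfate proteoglycan and plasma cell marker, went from 147, 136 and 163 to 334 and 318 in GM DC and had 115, 126 and 156 at 0 h and 142 and 106 at 20 h in GM4 DC, a difference of -1.15 ± 0.24 (adjusted p = 0.0349), with -0.54 for a second probe set that did not pass. At 20 h GM DC was above GM4 DC for Ctsh (adjusted p = 0.000412) and Sdc1 (adjusted p = 0.00142) in limma. The 20 h difference of H2-Oa did not pass (adjusted p = 0.161). The class II list as a whole, 16 genes, had a median of -0.11 with 7 above 0.

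Ngp, the neutrophilic granule protein, had a difference of -3.52 ± 0.41 (adjusted p = 0.00259) in all 10 fits. It was at 1447, 1322 and 1546 in GM DC at 0 h and 285 and 319 at 20 h, and went from 1900.2, 2794 and 1444 to 28.8 and 15.9 in GM4 DC. The cultures overlapped at 0 h, and at 20 h both GM4 DC arrays were far below both GM DC arrays. Of 17 neutrophil and granule markers, 13 had a difference below 0, with a median of -0.55, Ngp alone passed below 0 and Fpr2 above. Lcn2 (-1.98 ± 0.48, adjusted p = 0.0688) and Ltf (-1.79 ± 0.46, adjusted p = 0.0867) were below 0 without passing, and S100a8 and S100a9 had -0.30 ± 0.32 (adjusted p = 0.811) and -0.85 ± 0.38 (adjusted p = 0.368). The summed signal of the 17 was 10358 to 10660 in GM DC at 0 h and 4757 to 5899 at 20 h, and 15828 to 21279 and 9991 to 10184 in GM4 DC. The part of a change in granulocytes in the Ngp result was not tested.

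The other genes with opposite responses were of varied function. Aplp2, a relative of the amyloid precursor protein, went from 789, 686 and 859 up to 1220.0 and 1196 in GM DC and from 1449.8, 1332 and 1401 down to 791 and 694 in GM4 DC, so that the cultures exchanged places without overlap. The difference was -1.53 ± 0.18 (adjusted p = 0.00315) in all 10 fits, but a second probe set gave 0.40 and did not pass. Stard10, a lipid transfer protein, went from 26.0, 19.7 and 19.7 to 79.6 and 80.1 in GM DC and from 233, 153 and 228 to 117 and 94.1 in GM4 DC, where it stayed higher (difference -2.19 ± 0.36, adjusted p = 0.0126, 8 of 10 fits). Its 20 h levels alone did not differ at the limma threshold (adjusted p = 0.618). Pkp3, a desmosome protein, went from 15.1, 13.6 and 26.5 to 44.4 and 49.2 in GM DC and from 127, 117 and 153 to 67.1 and 77.4 in GM4 DC (difference -1.63 ± 0.31, adjusted p = 0.024, 4 of 10 fits).

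Birc2, a ubiquitin ligase that restrains the alternative NF-κB pathway, went from 239, 212 and 369 to 433 and 415 in GM DC and from 682, 576 and 709.6 to 455 and 374 in GM4 DC. The cultures overlapped at 20 h only, with a difference of -1.29 ± 0.26 (adjusted p = 0.0314, 2 of 10 fits), and a second probe set gave -0.27 and did not pass. Gtf2b, a general transcription factor, met likewise, with 159.7, 178 and 124 at 0 h and 269.8 and 225 at 20 h in GM DC and 328, 342 and 354 at 0 h and 256 and 215 at 20 h in GM4 DC (difference -1.15 ± 0.23, adjusted p = 0.0294, 3 of 10 fits). Hyal2, a hyaluronidase, had 30.6, 42.0 and 33.9 at 0 h and 51.6 and 105 at 20 h in GM DC and 88.7, 72.1 and 95.7 at 0 h and 48.3 and 32.0 at 20 h in GM4 DC. Its difference was -1.68 ± 0.36 (adjusted p = 0.0387, 1 of 10 fits), and a second probe set gave 0.50 and did not pass. Mgst1, a microsomal glutathione transferase, was the one that fell in GM DC, from 828, 733 and 730.0 to 544 and 469, and rose in GM4 DC, from 263, 471 and 310.0 to 614 and 559 (difference 1.34 ± 0.29, adjusted p = 0.0385, 1 of 10 fits).

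Of the cytokines that direct inflammation and T cells, 0 of 13 passed in limma, 5 had an unadjusted p under 0.05 (4 above 0 and 1 below), and the median was -0.06. Il12b, the chain shared by interleukin-12 and interleukin-23, rose by 2.44 in GM DC and by 2.06 in GM4 DC (difference -0.37 ± 0.48, adjusted p = 0.854). Il6 had -0.70 ± 0.41 (adjusted p = 0.557), Il1b 0.87 ± 0.40 (adjusted p = 0.381) and Il15 -0.90 ± 0.26 (adjusted p = 0.129). Among the named genes that passed, the difference closest to 0 was -0.85 (Cd40), so values of this size do not show equal responses.

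The lists of cytosolic ribosomal proteins, oxidative phosphorylation, and DNA replication and mitosis had medians above 0, and 0 of their genes passed in limma. Cytosolic ribosomal protein genes had a difference above 0 in 17 of 19 (8 at an unadjusted p under 0.05), with a median of 0.43, after median responses of -1.33 in GM DC and -0.79 in GM4 DC. Oxidative phosphorylation genes were above 0 in 23 of 29 (8 at an unadjusted p under 0.05) with a median of 0.20, and DNA replication and mitosis genes in 21 of 25 (6 at an unadjusted p under 0.05) with a median of 0.59. Median responses in GM DC and GM4 DC were -0.92 and -0.48 for oxidative phosphorylation, and -2.51 and -1.94 for DNA replication and mitosis. Each of these lists thus fell in both cultures, and more in GM DC. By 20 h the β-actin ratio rose in GM DC, while the Gapdh ratio there stayed within its 0 h range. The part of RNA quality in these lists was not tested. Conventional DC markers were below 0 in 11 of 12, with a median of -0.36, and 0 passed in limma against 2 at an unadjusted p under 0.05.

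Some lists held a single call: Irf1 among 18 Irf, Stat and myeloid transcription factors (median -0.58), Arg1 among 16 genes of nitric oxide, arginine and oxidative burst (0.02), Ccl5 among 5 T cell attractants (-0.02) and Sdc1 among 12 B and plasma cell markers (-0.18). Of 9 genes of LPS recognition and Toll-like receptor adaptors, Cd14 passed above 0 and Traf6 below, with a median of -0.01. In limma 0 genes passed, against 1 to 6 at an unadjusted p under 0.05 in each list, among chemokine receptors (median -0.26), prostaglandin and leukotriene synthesis (-0.09), glycolysis (0.07), cholesterol and fatty acid synthesis (0.32), the unfolded protein response (0.04), the Bcl-2 family and caspases (-0.12) and antioxidant defence (0.20). It was also 0, against 1 each, for markers of mast cells, basophils and eosinophils (-0.01), of erythroid cells and megakaryocytes (0.07) and of stroma and fibroblasts (0.15). Over all 12422 probe sets, 1567 had an unadjusted p under 0.05, and no list was tested against that share.

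**Figure D5:**
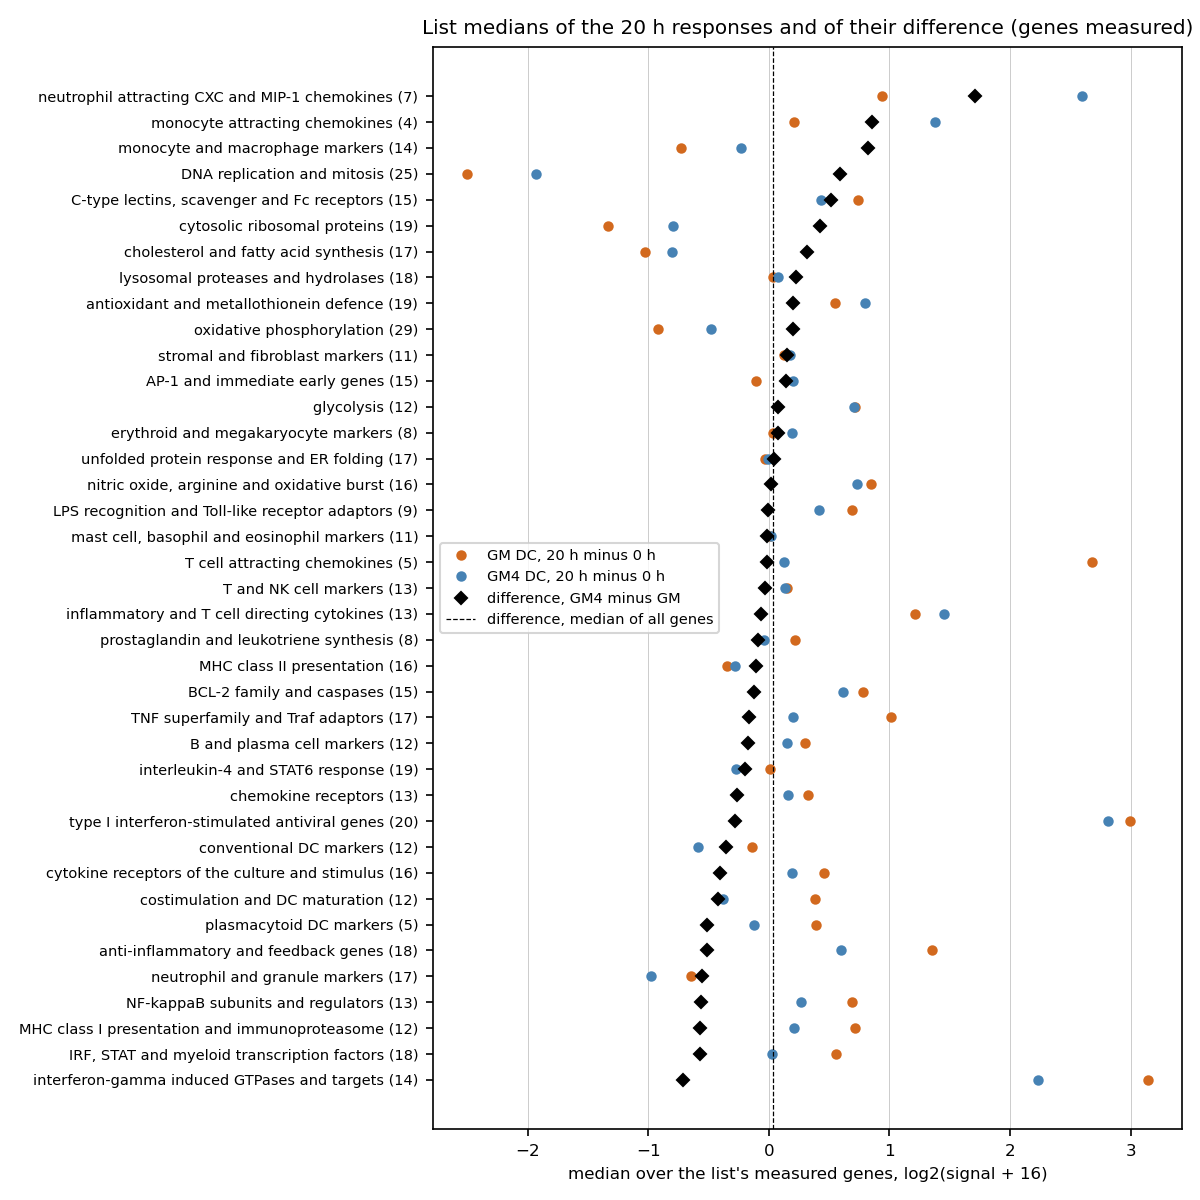
Each row is 1 of 39 gene lists with the number of genes measured, and the horizontal axis gives medians in log2(signal + 16) of the 20 h response of GM DC (orange), that of GM4 DC (blue) and their difference (black diamonds). The chemokine list at the top has a median difference of 1.71 and the interferon-γ list at the bottom one of -0.72, against 0.03 over all genes (dashed line). The lists were chosen with earlier results of these data known.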

How the data were processed

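Per the labels, total RNA of each of the 15 samples was labelled with biotin and read on an Affymetrix mouse array of its own. The files hold deposited intensity of each probe set, not logged, and MAS5 is named, without a version, in the submitters' processing notes. The trimmed mean was 150.1 on every array, so the authors had scaled the deposited intensity values. MAS5 scales each array separately, so a global change of RNA content would not be seen and low signals are noisy. Detection calls were not used here.

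Groups came from the sample titles. The 66 control probe sets were left out, and 12422 were tested unfiltered as log2(signal + 16) with limma 3.58.1 in R 4.3.3: 6 group means on 15 arrays, 9 residual and 4.76 prior degrees of freedom, moderation with an intensity trend, two-sided tests, Benjamini-Hochberg adjustment over all probe sets. The fit was tested on simulated data. Of these, 10833 had 1 symbol in the platform annotation, 396 had more and 1193 were unnamed, and for 10817 of the first kind the Entrez number was found in RefSeq's gene table. For each gene the probe set brightest on average stood for it. The probe sets called held 137 with 1 symbol, 15 with several and 5 with none.

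Named were the 15 largest called differences in each direction, called members of 39 gene lists (503 of 631 genes measured), genes with opposite called responses, and up to 4 uncalled members of a list. The members and lists were chosen with earlier results of these data known. The number of arrays limits the precision, and p-values measure the spread between these samples. Replicate arrays correlated at 0.966 or more. Promoters were matched to 6572 genes by Entrez number. Alternatives were other offsets, quantile normalization, median centring, leaving out the dimmest 40% of probe sets, no trend, array weights, a replicate block, the 10 arrays alone, an RNA quality covariate, averaging a gene's probe sets, and each array left out. List counts under these settings were added after seeing the data.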

Additional observations from a re-analysis of the deposited data

Results flagged for a closer look

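All 56 named genes are listed because the test of the difference between the 2 cultures' responses passed. The values are that difference, GM4 DC minus GM DC, on the log2(signal + 16) scale. Above 0 were Fos (2.64), Cxcl5 (2.36), Rgs2 (2.19), Cd93 (2.10), Clec4d (2.10), Ccl3 (2.07), Fpr2 (2.04) and Ccl6 (2.02). Smaller values above 0 were found for S100a4 (1.95), Tg (1.88), Alcam (1.86), Ubd (1.78), Cxcl2 (1.71), Ccl4 (1.62), Dus1l (1.59), Clec4a2 (1.50), Cd14 (1.39), Mgst1 (1.34) and Hexa (0.93). The lowest values were those of Fbp1 (-4.13), Ngp (-3.52), Plac8 (-2.88), Ccl5 (-2.55), Tnfrsf9 (-2.44), Cd86 (-2.39), Vnn3 (-2.30), Thy1 (-2.28), Stard10 (-2.19), Socs1 (-2.13) and Il1r2 (-2.07). Between -2 and -1.5 lay Fezf2 (-1.97), Gadd45b (-1.88), Ms4a4c (-1.85), Gimap1 (-1.83), Gbp2 (-1.82), Spib (-1.82), Hyal2 (-1.68), Traf1 (-1.65), Pkp3 (-1.63), Nfkbia (-1.55) and Aplp2 (-1.53). Nearer to 0 lay Usp18 (-1.45), Arg1 (-1.40), Birc2 (-1.29), Il13ra1 (-1.22), Gtf2b (-1.15), Sdc1 (-1.15), Nfkb2 (-1.13), Irf1 (-1.12), H2-Oa (-1.11), Traf6 (-1.11), Psme1 (-1.08), Psmb9 (-1.02), Ctsh (-0.92), Psmb8 (-0.90) and Cd40 (-0.85). No group holds 4 or more arrays, so single arrays were not tested as outliers. In both cultures the difference rests on 2 arrays at 20 h.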

How the results depend on the processing

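Against 157 probe sets, 304 passed with array weights and 260 with a replicate block in the fit. The block count is a hint only, because the replicate numbers were not shown to pair the samples: deviations of same-numbered arrays correlated above 0.1 in 17 of 33 pairs (0.0026 to 0.332), although 13 of 15 arrays correlated best with their own number. With an array left out, the count ran from 15 to 167. It was 147 with an offset of 1, 156 with an offset of 64, 192 after quantile normalization, 111 after median centring, 221 of 7453 with the 40th percentile filter, 154 without a trend, 125 with the 10 arrays alone, 213 with the RNA quality covariate, and 112 of 8251 genes when a gene's probe sets were averaged. Of the 125 with the 10 arrays alone, 98 were among the 157. After quantile normalization the split was 100 above 0 and 92 below. Of the 56 named genes, 37 to 56 passed under the settings that keep every array of the contrast, 52 of the 52 that the filter kept, and none changed sign. With an offset of 1, 9 of the 56 did not pass: Cxcl5, Cd93, Tg, Ubd, Clec4a2, Sdc1, Spib, Gimap1 and Thy1. Each left-out fit drops 1 array, and the count varies with the array dropped. With 2 arrays per group at 20 h, single arrays limit what can be called.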

Other observations

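Levels at 6 h, which no comparison above uses, are given here as values. Cxcl2 was at 1923 and 3181 in GM DC and 661, 1254 and 1082 in GM4 DC at 6 h, and Ccl4 was at 726 and 1264 in GM DC and 726, 775 and 824 in GM4 DC. In GM DC both arrays at 6 h were above both at 20 h for these 2 chemokines, while for Cxcl2 in GM4 DC all 3 arrays at 6 h were below both at 20 h. Alcam was at 495 and 497 in GM DC and 333, 404 and 378 in GM4 DC at 6 h, above every array of its culture at 0 and 20 h. Clec4d was at 1046 and 964 in GM DC and at 105, 198 and 118 in GM4 DC, where its late level was reached only after 6 h.

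Among the genes below 0, Tnfrsf9 was at 38.9 and 47.9 in GM DC at 6 h, within its range at 0 h, and at 258, 211 and 317 in GM4 DC, below every array at 0 and 20 h. Cd40 was at 2345 and 2009 in GM DC and 1734, 1528 and 1693 in GM4 DC, higher than on any array at 20 h. Fbp1 was still at 626, 236 and 239 in GM4 DC at 6 h, and Ngp at 1425, 1204 and 1576, so that for both the low values appear at 20 h. Arg1 was at 369 and 368 in GM DC and 850.0, 1157 and 733 in GM4 DC, below every array of its culture at 0 and 20 h.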
